A study of Mus musculus with 18 samples.

Results

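The comparison described here sets cells with the aryl hydrocarbon receptor (AhR) against cells without it while both were exposed to the AhR ligand YH439. Its members are 6 of the 18 arrays of the study: 3 of the line reconstituted with AhR and 3 of the AhR-null line, chosen by their labels alone. A probe was kept if its signal exceeded background (detection p-value below 0.05) on 3 or more of the study's arrays, which gave 11149 genes to test. Both lines descend from AhR-/- hepatocytes of C57BL/6N mice that were transformed with SV40 carrying the tsA209 mutation. The AhR-null line is stably transduced with the tetracycline repressor (TetR) alone. The reconstituted line carries TetR together with a mouse AhR bearing a HisMyc tag. Confluent adherent cells of both lines were held for 8 h with 10 µM YH439, at 34 °C, with 10% serum and 100 nM dexamethasone. The other arrays, used here only for comparison, hold both lines with 0.1% DMSO or in suspension in 1.68% methylcellulose, each for 8 h and with 3 arrays a group. No DMSO is recorded for the YH439 cells.

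There is 1 line of each kind, so the receptor and any other difference between the lines cannot be told apart. Whether either line is a clone, and which promoter drives the AhR insert, is not stated. The labels speak of biological triplicates without saying that the cultures were separate. The p-values therefore reflect only the spread among the samples, part or all of which may be technical.

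AhR rests in the cytosol in a complex with HSP90 and other chaperones. When a ligand binds, it enters the nucleus, pairs with ARNT and binds DNA at xenobiotic response elements, whose core letters are GCGTG. The genes it is best known to induce in liver encode enzymes of foreign-compound metabolism, such as CYP1A1, CYP1B1, NQO1 and ALDH3A1. Its targets TIPARP and AHRR are known to dampen the receptor in turn.

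The promoters of 4 genes that were higher in reconstituted cells are shown because they hold that core. Each runs from 250 bases before to 50 bases after the annotated start, 5′ to 3′ on the gene's strand, from RefSeq, build GRCm38.p6. Capitals mark GCGTG, or CACGC where the core lies on the other strand. Tiparp encodes a mono-ADP-ribosyltransferase, Gsdme a pore-forming gasdermin, Ccno cyclin O, and Cyp1b1 a cytochrome P450. The windows are chr3:65528197-65528496 (+) for Tiparp, chr6:50261720-50262019 (−) for Gsdme, chr13:112987552-112987851 (+) for Ccno and chr17:79715012-79715311 (−) for Cyp1b1.
Tiparp: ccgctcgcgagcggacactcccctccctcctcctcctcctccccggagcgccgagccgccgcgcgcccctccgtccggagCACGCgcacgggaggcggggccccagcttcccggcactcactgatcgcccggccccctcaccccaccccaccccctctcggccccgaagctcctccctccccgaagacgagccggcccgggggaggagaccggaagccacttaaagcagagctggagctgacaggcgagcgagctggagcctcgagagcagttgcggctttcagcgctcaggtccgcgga
Gsdme: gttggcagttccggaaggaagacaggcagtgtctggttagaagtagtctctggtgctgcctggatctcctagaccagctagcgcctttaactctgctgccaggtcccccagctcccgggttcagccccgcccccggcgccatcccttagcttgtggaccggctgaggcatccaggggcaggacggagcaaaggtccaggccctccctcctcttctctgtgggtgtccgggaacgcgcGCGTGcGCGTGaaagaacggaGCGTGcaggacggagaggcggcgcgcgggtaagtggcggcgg
Ccno: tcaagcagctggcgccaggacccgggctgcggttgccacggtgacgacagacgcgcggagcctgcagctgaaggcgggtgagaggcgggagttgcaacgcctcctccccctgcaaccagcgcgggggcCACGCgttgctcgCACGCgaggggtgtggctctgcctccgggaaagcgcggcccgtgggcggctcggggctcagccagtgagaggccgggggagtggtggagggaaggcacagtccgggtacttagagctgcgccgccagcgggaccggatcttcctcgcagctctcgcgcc
Cyp1b1: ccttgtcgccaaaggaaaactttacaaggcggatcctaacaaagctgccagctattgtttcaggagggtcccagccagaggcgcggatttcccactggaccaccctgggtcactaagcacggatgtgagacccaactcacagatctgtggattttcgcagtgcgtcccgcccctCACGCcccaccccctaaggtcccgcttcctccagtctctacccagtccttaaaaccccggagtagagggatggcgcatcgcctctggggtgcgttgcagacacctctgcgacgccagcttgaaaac

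The Tiparp core lies 170 bases before the start and the Cyp1b1 core 76 bases before it. Ccno has cores 122 and 109 bases before its start, and the nearer one also matches the longer form TNGCGTG. Gsdme has cores 13 and 7 bases before its start and another 8 bases after it. Among all 32851 promoters of the table, 32.4% hold GCGTG on either strand and 5.07% hold TNGCGTG, which always contains a GCGTG. Among the 9060 tested genes with a promoter entry the shares were 55.2% and 9.32%. Of the genes higher in reconstituted cells, 29 of 51 with an entry (56.9%) held GCGTG and 9 (17.6%) held TNGCGTG. Of the genes lower in reconstituted cells, 39 of 75 (52.0%) held GCGTG and 4 (5.33%) held TNGCGTG. The same 5 letters are also the core of the element bound by hypoxia-inducible factors, and a match of letters is not a bound site.

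Arrays of the whole series detected 42.0% to 44.6% of their probes. The median signal separated 6 dim arrays, replicate 3 of the AhR-null line and replicate 1 of the reconstituted line in each condition. With YH439 the dim arrays had medians of 6.03 and 7.19, against 10.4 and 10.8 on the other AhR-null arrays and 9.25 and 8.78 on the other reconstituted arrays. With YH439, the brighter arrays of the AhR-null line had higher medians than the brighter arrays of the reconstituted line, so on them line and array brightness cannot be told apart. The array carries probes for 30 hepatocyte genes. Of these, 14 were tested, 7 were detected on all 6 YH439 arrays and 14 were detected on no array of the series. Alb, Apoa1 and Ttr, which encode plasma proteins made by hepatocytes, did not reach the 3 arrays needed for a test. Mesenchymal and stellate markers were detected more widely, with 18 of 21 detected on all 6 YH439 arrays.

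The receptor itself could not be checked. The 1 Ahr probe was detected on 1 of 18 arrays. Its background-subtracted signals with YH439 were −9.24, 1.67 and 0.552 on the AhR-null arrays and 0.922, 0.763 and 8.86 on the reconstituted arrays. Whether the probe lies within the inserted coding sequence is not known here. Arnt, the partner that AhR needs to bind DNA, differed by −0.22 ± 0.08 on the log2 scale by its brightest probe (limma adjusted p = 0.358). None of the 8 tested genes of the receptor complex and its partners passed the threshold, where 1.44% of all genes did. Their differences ran from −0.91 to 0.26, with a median of −0.26.

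With YH439, 161 genes (1.44% of those tested) differed between the lines at a limma adjusted p under 0.05. Of these, 70 (0.628%) were higher in reconstituted cells and 91 (0.816%) were lower. Among the largest differences, Adh7, Aldh3a1 and Nqo1, enzymes that process alcohols, aldehydes and quinones, were higher by 2.89, 2.26 and 1.79 on the log2 scale. Foxq1, Scn3a, Ccno and Chil1, which are not such enzymes, had fitted differences between those of Aldh3a1 and Nqo1. The adhesion gene Cntnap2, the protease gene Adamts9 and the guidance gene Slit3 were lower, at −1.80, −1.58 and −1.57. A change of 2-fold or more was reached by 23 of the higher and 25 of the lower genes, and the smallest passing difference was 0.37 on the log2 scale. In all 161 genes the 3 arrays of one line lay above the 3 arrays of the other, which held for 13.6% of all genes tested (7.79% higher, 5.83% lower in reconstituted cells). With every kept probe tested by itself, named or not, 194 of 22203 (0.874%) passed. The median difference over all genes was 0.03. Of the 59 passing genes picked by the naming rule given with the methods, 33 lost the call when the spread was estimated from the 6 YH439 arrays alone. Adh7, Aldh3a1, Nqo1, Tiparp, Nfe2l2, Scn3a, Gsdme, Foxq1 and Chil1 among the higher genes kept it, as did Cntnap2, Adamts9, Mmp3, Slit3, Dcn, Il1rn, Trim30a and Pcdh10 among the lower. In bulk RNA, fewer cells of a type and less RNA per cell cannot be told apart.

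Differences are given as log2 reconstituted minus AhR-null ± standard error, and levels as normalized log2 intensities in the order of replicates 1, 2 and 3. Levels are compared only within a gene.

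By the brightest probe of each gene, the largest difference was that of Adh7, the class IV alcohol dehydrogenase that oxidises retinol and ethanol. Its levels were 7.61, 7.47 and 8.29 on the AhR-null arrays and 10.74, 10.71 and 10.58 on the reconstituted arrays. Every reconstituted array stood above every AhR-null array, and the dim AhR-null array was the highest of its group. The difference was 2.89 ± 0.24 (limma adjusted p = 7.78e-06), or 7.40-fold. With DMSO the lines already differed by 1.33 (limma adjusted p = 0.014). The other kept Adh7 probe gave a difference of 0.34, and with the mean of both probes it was 1.61, below the 2.26 of Aldh3a1.

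Aldh3a1 encodes an aldehyde dehydrogenase for aromatic and medium-chain aldehydes. Its levels were 9.28, 9.32 and 9.73 in AhR-null cells and 11.64, 11.76 and 11.69 in reconstituted cells. The groups were far apart and the reconstituted arrays were tightly grouped. The difference was 2.26 ± 0.14 (limma adjusted p = 5.64e-07), or 4.78-fold. With DMSO, Aldh3a1 levels were 9.11, 9.30 and 9.39 in AhR-null cells and 9.43, 9.47 and 9.39 in reconstituted cells. Those DMSO levels overlapped, with a difference of 0.16 (limma adjusted p = 0.68).

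Nqo1, a quinone reductase and a target of both AhR and NRF2, had levels of 6.03, 5.74 and 6.50 in AhR-null cells. In reconstituted cells its levels were 8.05, 7.76 and 7.82. The groups did not overlap, and the difference was 1.79 ± 0.20 (limma adjusted p = 9.4e-05). Its DMSO difference of 0.90 did not pass (limma adjusted p = 0.0561).

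Tiparp levels were 5.92, 5.87 and 5.49 in AhR-null cells and 7.25, 7.24 and 7.34 in reconstituted cells. The reconstituted arrays agreed closely and lay above all AhR-null arrays. The difference was 1.52 ± 0.19 (limma adjusted p = 0.000348), against 0.02 with DMSO. The feedback repressor Ahrr was detected on 0 of 3 AhR-null and 3 of 3 reconstituted arrays with YH439, but its levels overlapped between the lines and it did not pass the threshold (limma adjusted p = 0.214).

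Cyp1b1, which oxidises steroids and polycyclic hydrocarbons, had levels of 11.72, 11.67 and 10.85 in AhR-null cells. Its levels in reconstituted cells were 12.61, 12.79 and 12.87. The groups did not overlap, although the dim AhR-null array stood well below the other 2. The difference was 1.34 ± 0.27 (limma adjusted p = 0.0168). The call was lost without AhR-null replicate 3 (0.0582), without reconstituted replicate 2 (0.073) or 3 (0.0889), with the authors' processed values (0.074) and with the YH439 arrays alone (0.0813), all limma adjusted p. The Cyp1a1 probe was detected on 0 of 18 arrays, as were both Cyp1a2 probes, so these enzymes could not be tested.

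Of the 16 AhR battery genes on the array, 12 were tested, and 9 of the 12 were higher and 0 lower, where 0.628% of all genes were higher. Adh7 and Gpc1 had been put on this list with their responses in these data known. The members' median difference was 1.15 with YH439 and 0.28 with DMSO, where 2 of the 12 passed. Besides the genes above, Gsta1, a glutathione S-transferase, differed by 1.15 ± 0.20 (limma adjusted p = 0.00428). Nfe2l2, which encodes NRF2, differed by 0.85 ± 0.09 (limma adjusted p = 5.27e-05) and already passed with DMSO at 0.47 (0.0197). Gpc1, a cell-surface heparan sulfate proteoglycan, differed by 1.15 and Xdh, xanthine dehydrogenase, by 0.53. The 2 UDP-glucuronosyltransferase genes Ugt1a6a and Ugt1a6b had differences of 0.26 and 0.18 and did not pass.

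**Figure D1:**
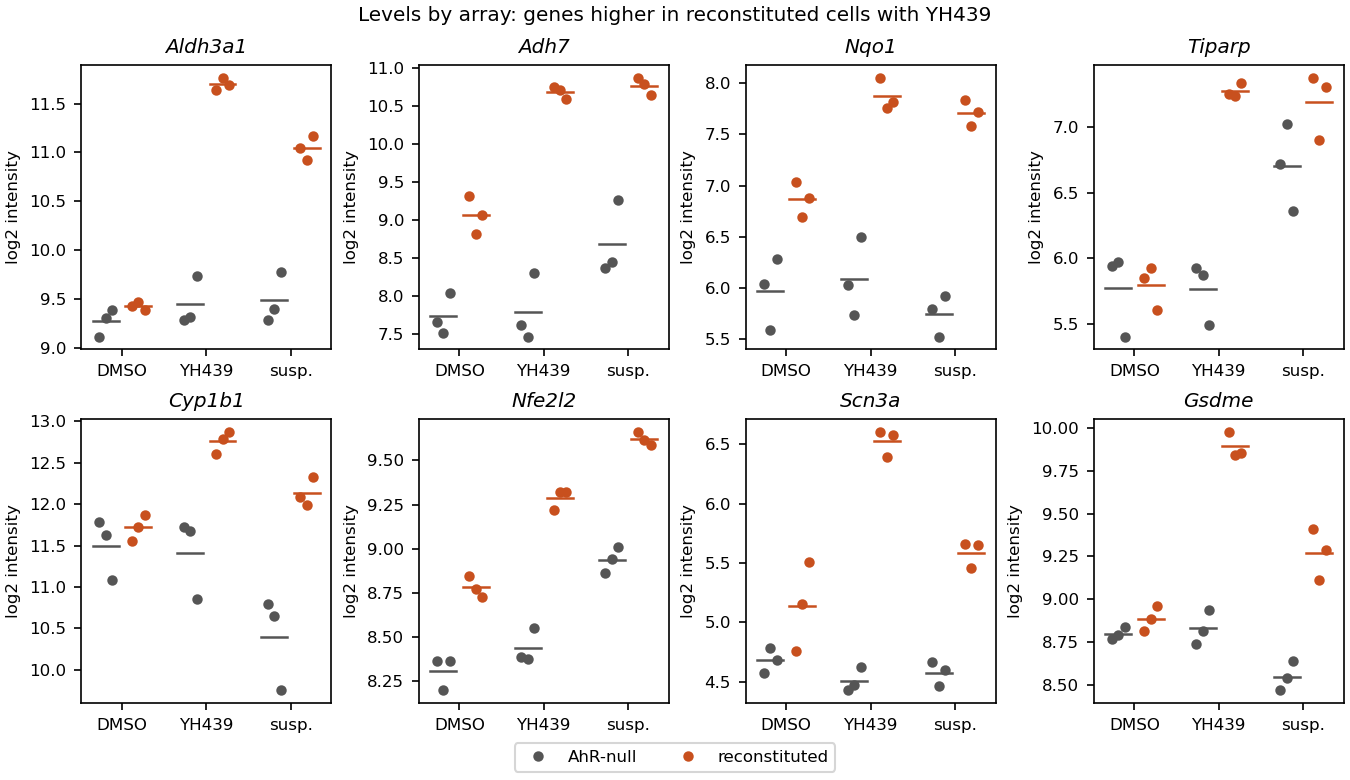
Normalized log2 intensity of 8 genes on every array, with DMSO, YH439 or in suspension, for AhR-null (grey) and reconstituted (orange) cells; points are arrays and lines are means. Aldh3a1 levels of both lines lay from 9.11 to 9.47 with DMSO, while with YH439 they reached 9.73 at most in AhR-null and 11.64 at least in reconstituted cells.

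NRF2 is the transcription factor that induces antioxidant and detoxifying genes. Of 22 NRF2 targets tested, 7 were higher and 0 lower, where 0.628% of all genes were higher, and the median difference was 0.30. Nqo1 and Gsta1 are also on the AhR list. Abcc4, an efflux transporter, differed by 0.76 (limma adjusted p = 0.000398), and the carbonyl reductase gene Cbr3 by 0.74 (0.000398). Gclm, the modifier subunit of glutamate-cysteine ligase, differed by 0.65 (limma adjusted p = 0.00126), and Srxn1, which encodes sulfiredoxin, by 0.61 (0.0268). The NRF2 targets Gclc, Txnrd1, Fth1 and Prdx1 did not pass, with differences between −0.41 and 0.10. Hmox1, heme oxygenase 1, differed by 0.56 with arrays that did not overlap, and missed the threshold (limma adjusted p = 0.112). When the fit held the 6 YH439 arrays alone, 2 of the 22 passed, where 40 of all 11149 genes did.

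Of 21 glutathione S-transferase genes tested, 3 were higher, where 0.628% of all genes were: Gsta1, Gsta2 and Gsto1. Gsta2 differed by 1.03 (limma adjusted p = 0.00968), a call lost with the authors' values (0.0624) and without reconstituted replicate 3 (0.0765). Gsto1 differed by 0.47 (limma adjusted p = 0.0088), a call lost with median scaling (0.0632) and without reconstituted replicate 2 (0.0527). The sequence likeness of Gsta1 and Gsta2 leaves it uncertain how far their probes measure separate genes.

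Several genes outside the metabolic lists differed as much. Scn3a, a voltage-gated sodium channel subunit, had levels of 4.43, 4.47 and 4.62 in AhR-null cells, where no array detected it, and 6.60, 6.39 and 6.58 in reconstituted cells. The groups lay far apart, and Scn3a was at least 2.81-fold higher in reconstituted cells (limma adjusted p = 3.28e-06). This bound sets the mean of the reconstituted arrays against the AhR-null arrays, each taken at the Scn3a signal or the dimmest detected probe, whichever was brighter. Gsdme levels were 8.74, 8.81 and 8.94 in AhR-null cells and 9.98, 9.84 and 9.86 in reconstituted cells. These groups did not overlap, and the difference was 1.06 ± 0.10 (limma adjusted p = 1.5e-05), against 0.09 with DMSO.

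Foxq1, a forkhead transcription factor, had levels of 6.00, 6.00 and 6.47 in AhR-null cells and 8.30, 8.12 and 8.27 in reconstituted cells. The difference was 2.07 ± 0.22 (limma adjusted p = 5.79e-05), against 0.95 with DMSO. Chil1, a secreted chitinase-like protein, had levels of 5.42, 5.15 and 5.42 in AhR-null cells and 7.33, 7.13 and 7.28 in reconstituted cells. Neither gene's groups overlapped. Chil1 differed by 1.92 ± 0.22 with YH439 (limma adjusted p = 0.00014), by 0.23 with DMSO and by 0.18 in suspension. Ccno differed by 1.93 ± 0.19 (limma adjusted p = 3.67e-05) and was detected on 2 of 3 AhR-null arrays.

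Slc22a23, of the organic ion transporter family, differed by 1.40 ± 0.24, and Slc40a1, the iron exporter ferroportin, by 1.2 ± 0.21 (limma adjusted p = 0.00455 for both). Anpep, aminopeptidase N, differed by 1.19 ± 0.19 (limma adjusted p = 0.00257) and was detected on 1 of 3 AhR-null arrays. Cldnd1, a claudin-domain protein, differed by 1.16 ± 0.19 (limma adjusted p = 0.00356). Of 23 immediate-early genes tested, 1 was higher and 1 lower, where 0.628% and 0.816% of all genes were. The higher one, Ier3, differed by 1.12 ± 0.18 (limma adjusted p = 0.0035). The lower one, Atf3, differed by −0.52 (limma adjusted p = 0.0487) and lost its call without any 1 array except AhR-null replicate 1 (0.0816 to 0.182). Of the 4 tested placental prolactin-family Prl2c genes, 3 were higher, where 0.628% of all genes were. Their differences were 1.06 for Prl2c4, 0.98 for Prl2c2 and 0.95 for Prl2c3. Prl2c3 (limma adjusted p = 0.0176) lost its call without any 1 array except AhR-null replicate 3 (0.0629 to 0.099). These paralogs are nearly identical, so their probes may share signal and are not separate evidence.

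A few genes were not above background on any YH439 array of 1 line. The nicotinic receptor subunit gene Chrna5 was at least 1.44-fold higher in reconstituted cells, the forkhead gene Foxf1 at least 1.5-fold and Neurl3 at least 1.37-fold. In the other direction, the membrane glycoprotein gene Gpm6a was at least 1.53-fold higher in AhR-null cells, the matrix gene Hmcn1 at least 1.35-fold and Mmrn1 at least 1.33-fold. Apart from Neurl3, these were chosen after their values were seen. The brightest Neurl3 probe was detected on all 3 reconstituted arrays with YH439 and on no DMSO array. The group where it was high was thus enough by itself to keep that probe. The Neurl3 call was lost with median scaling (0.0861) and with the authors' values (0.115), both limma adjusted p.

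The 91 genes lower in reconstituted cells were led by Cntnap2, a neurexin-family adhesion protein. Its levels were 7.70, 7.88 and 7.91 in AhR-null cells and 5.84, 6.19 and 6.05 in reconstituted cells. The groups did not overlap, and the difference was −1.80 ± 0.14 (limma adjusted p = 3.62e-06). With DMSO it was −1.46 and in suspension −1.59. The other 2 kept Cntnap2 probes gave −1.13 and 0.18.

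Adamts9, a secreted metalloprotease that cleaves proteoglycans, had levels of 8.46, 8.39 and 8.47 in AhR-null cells and 6.97, 7.05 and 6.57 in reconstituted cells. All AhR-null arrays were higher, and the difference was −1.58 ± 0.14 (limma adjusted p = 1.5e-05). The matrix metalloprotease gene Mmp3 had levels of 10.65, 10.56 and 10.34 in AhR-null cells and 9.26, 9.18 and 9.22 in reconstituted cells. These did not overlap either, with a difference of −1.30 ± 0.15 (limma adjusted p = 0.000199) that was −1.32 with DMSO and −1.23 in suspension. Mmp3 was the 1 gene of 19 proteases and inhibitors on the list to pass, where 0.816% of all genes were lower.

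Among 21 guidance and small GTPase genes tested, 3 were lower and 0 higher, where 0.816% and 0.628% of all genes were. Slit3, a secreted ligand of Robo receptors, had levels of 7.34, 7.46 and 6.93 in AhR-null cells and 5.57, 5.78 and 5.67 in reconstituted cells. The groups did not overlap. Its difference of −1.57 ± 0.22 (limma adjusted p = 0.000895) stood beside −2.12 with DMSO, and its other kept probe gave −0.67. The receptor gene Robo1 differed by −0.51 (limma adjusted p = 0.00833), a call lost without reconstituted replicate 3 (0.0673). Sema3a, a repulsive guidance ligand, differed by −0.71 (limma adjusted p = 0.0392) and lost its call without any 1 of the 6 arrays (0.0501 to 0.192).

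Of 27 collagen and matrix genes tested, 4 were lower and 0 higher, where 0.816% of all genes were lower, and the median difference was −0.21. Dcn, which encodes the collagen-binding proteoglycan decorin, had levels of 11.39, 11.43 and 11.28 in AhR-null cells and 10.57, 10.57 and 10.64 in reconstituted cells. These did not overlap, and the difference was −0.77 ± 0.09 (limma adjusted p = 0.000134), against −0.81 with DMSO. The other 2 kept Dcn probes gave −0.89 and −0.22. Col15a1, a basement-membrane collagen, differed by −1.05 (limma adjusted p = 0.0036), and the proteoglycan gene Bgn by −0.60 (0.00455). Thbs2, a matricellular thrombospondin, differed by −0.74 (limma adjusted p = 0.0418) and lost its call without any 1 of the 6 arrays (0.0646 to 0.191).

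Beside these matrix genes, the mesenchymal and stellate markers differed by −0.82 to 0.46, with a median of −0.16. The summed linear intensity of the 18 tested markers was 47200 to 51400 on the AhR-null arrays and 37400 to 38900 on the reconstituted arrays, a sum that the brightest markers carry, and its part in the result was not tested. Of the 18, 2 were lower, where 0.816% of all genes were. These were Pdgfra, a growth factor receptor, by −0.61 (limma adjusted p = 0.00573) and Snai2, a transcriptional repressor, by −0.72 (0.00405). Vim, Col1a1 and Acta2 differed by 0.23, 0.18 and −0.55 and did not pass. The other kept Pdgfra probe gave −0.08, and with the mean of both the call was lost (0.0587, limma adjusted p). The stellate markers Lrat, Gfap and Reln were not detected on enough arrays for a test. The summed levels of hepatocyte, bile duct, macrophage and endothelial markers overlapped between the lines, the last 3 lists resting on 5, 4 and 5 tested genes. No gene of those 3 lists passed, and of 14 hepatocyte genes tested 1 was lower, the keratin gene Krt18 at −0.83. Of 13 macrophage markers on the array, 8 were detected on no array.

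Of 22 chemokine and cytokine genes tested, 3 were lower and 1 higher, where 0.816% and 0.628% of all genes were. Il1rn, the interleukin-1 receptor antagonist, had levels of 7.71, 7.59 and 7.53 in AhR-null cells and 6.41, 6.58 and 6.23 in reconstituted cells. The groups did not overlap, and the difference was −1.20 ± 0.14 (limma adjusted p = 0.00025) with YH439, −1.04 with DMSO and −0.26 in suspension. The chemokine genes Cxcl14 and Ccl9 differed by −1.03 (limma adjusted p = 0.000565) and −0.89 (0.0036). Ptx3, a secreted pattern-recognition protein, was the 1 higher gene of that list, at 0.43 (limma adjusted p = 0.0315), a call lost without any 1 array except AhR-null replicate 2 (0.0561 to 0.14).

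Of 23 interferon-stimulated genes tested, 3 were lower and 0 higher, where 0.816% of all genes were lower, and the median difference was −0.26. Rsad2, the antiviral protein viperin, differed by −0.86 (limma adjusted p = 0.0276), a call lost without AhR-null replicate 3 (0.0879) and without reconstituted replicate 1 (0.137) or 3 (0.111). Usp18, which removes ISG15 from proteins, differed by −0.80 (limma adjusted p = 0.00717), a call lost without reconstituted replicate 3 (0.0575). Its other kept probe gave −0.23, and with the mean of both the call was lost (0.182, limma adjusted p). The immunoproteasome subunit gene Psmb8 differed by −0.45 (limma adjusted p = 0.0321), a call lost with the random block by line and number (0.105) and without any 1 of the 6 arrays (0.0761 to 0.121). The other kept Psmb8 probe gave −0.20, and with the mean of both the call was lost (0.245, limma adjusted p). The count of 3 became 0 with the YH439 arrays alone and without reconstituted replicate 3, and 1 with the mean of a gene's probes, without AhR-null replicate 3 and without reconstituted replicate 1. It became 8 without the dim arrays and 6 with the array set as a term. In either direction, 2771 and 400 of all 11149 genes passed in those fits. With the YH439 arrays alone 40 genes passed, and without reconstituted replicate 3 it was 91. Trim30a, an interferon-inducible ubiquitin ligase family member that is not on that list, had levels of 7.68, 7.82 and 7.59 in AhR-null cells and 6.51, 6.52 and 6.52 in reconstituted cells. Its groups were well apart, with a difference of −1.18 ± 0.11 (limma adjusted p = 1.5e-05).

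**Figure D2:**
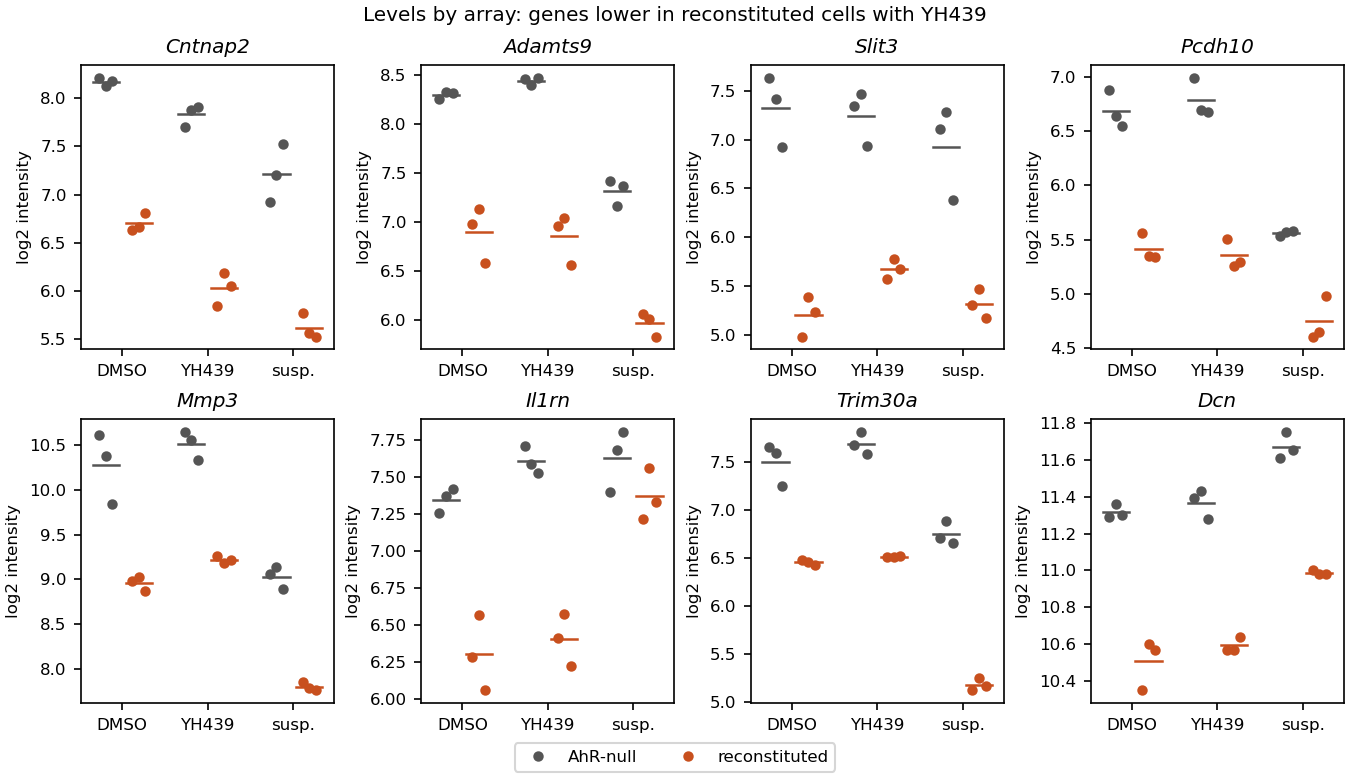
Normalized log2 intensity of 8 genes lower in reconstituted cells, on every array of each condition; points are arrays and lines are means, grey for AhR-null and orange for reconstituted. The lines stood apart with DMSO as well as with YH439, as for Dcn at −0.81 and −0.77, while Il1rn levels lay closer in suspension at −0.26.

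Pcdh10, a protocadherin, had levels of 6.99, 6.70 and 6.67 in AhR-null cells and 5.51, 5.26 and 5.30 in reconstituted cells. These were clearly separate, and the difference was −1.43 ± 0.13 (limma adjusted p = 1.5e-05). Capn6, a calpain-family protein without protease activity, differed by −1.43 ± 0.14 (limma adjusted p = 3.16e-05), and the estrogen-responsive gene Greb1 by −1.39 ± 0.17 (0.00025). Inmt, which methylates indole amines, differed by −1.19 ± 0.15 (limma adjusted p = 0.000398). Nxph1, a neurexin ligand, differed by −1.13 ± 0.19 (limma adjusted p = 0.00405), and Csprs by −1.28 ± 0.21 (0.0036). Aldh1a1, which makes retinoic acid from retinal, was lower by −1.01 (limma adjusted p = 0.000813), the opposite direction to Adh7 and Aldh3a1. It was the 1 call on the list of 14 other phase I and retinoid enzymes, where 0.816% of all genes were lower. That list leaves out the AhR battery genes Adh7, Aldh3a1 and Cyp1b1.

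Other lists held few calls, where 0.628% of all genes tested were higher and 0.816% lower. Hypoxia and glycolysis genes had 2 lower of 21, namely Ankrd37 at −0.92 and the pyruvate dehydrogenase kinase gene Pdk1 at −0.53. Growth factors and receptors had 2 lower of 26, namely Pdgfra and Egfr, the latter at −0.71 (limma adjusted p = 0.0311). The other 4 kept Egfr probes ran from −0.72 to 0.13, and with the mean of its probes Egfr was at −0.41 and lost its call (0.292, limma adjusted p). Keratin and cornified-envelope genes had 2 lower of 19, Krt18 at −0.83 and Sprr2k at −0.84. The 23 ATF4 and unfolded protein response genes and the 17 MHC class I and antigen presentation genes each had 1 lower. Ankrd37 lost its call without AhR-null replicate 1 (0.0546) or reconstituted replicate 1 (0.0629), and Pdk1, Egfr and Krt18 lost theirs without any 1 of 5 of the 6 arrays (limma adjusted p of 0.0668 to 0.145, 0.062 to 0.181 and 0.0769 to 0.138). No gene passed among 23 integrin and focal adhesion genes, 16 cadherins and junction genes, 19 SRF targets, 16 YAP targets, 23 TGF-beta and BMP genes or 21 WNT genes. None passed either among 20 mitosis genes, 28 replication genes, 20 p53 targets, 19 glucocorticoid-responsive genes or 15 cholesterol genes.

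**Figure D3:**
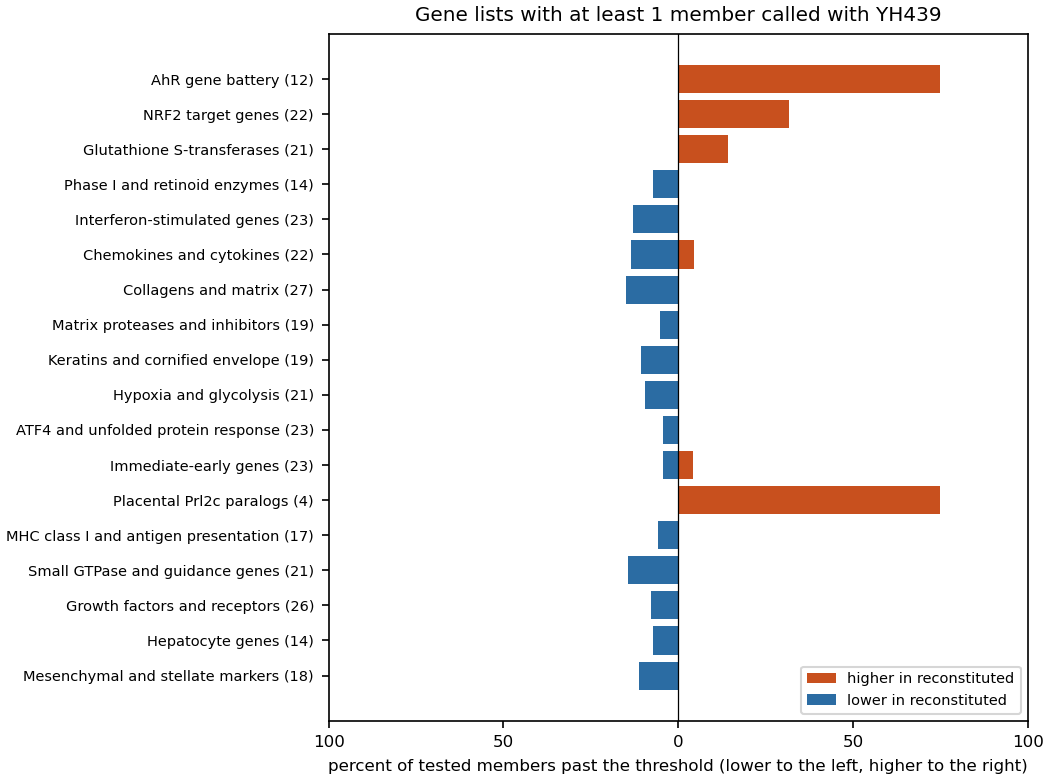
Percent of each list's tested members that passed a limma adjusted p of 0.05, higher in reconstituted cells to the right and lower to the left, with the number tested in brackets; lists without a passing member are not drawn. The AhR battery (9 of 12) and the Prl2c paralogs (3 of 4) reach farthest to the right, and no list drawn to the left exceeds the 4 of 27 of collagens and matrix. Adh7 and Gpc1 were put on the AhR list with their responses known, and the Prl2c probes may share signal. Over all genes tested, 0.628% were higher and 0.816% lower.

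How much of the line difference was already there without the ligand was read from the DMSO arrays. None enter the YH439 difference itself, but all enter the spread behind its p-values. They also fall into the same dim and brighter sets. The dim ones were again AhR-null replicate 3 and reconstituted replicate 1. Their deviations from group means correlated with those under YH439 at 0.849 and 0.545. The brighter AhR-null arrays again had higher medians, 11.91 and 10.96 against 9.132 and 8.815. How far these sets carry the agreement in sign was not tested, and the same-sign share of all genes is not given. With DMSO, 61 genes (0.547%) differed between the lines, of which 10 (0.0897%) were higher and 51 (0.457%) lower in reconstituted cells. Of the 70 genes higher with YH439, 68 had the same sign with DMSO and 6 (8.57%) passed there. Of the 91 genes lower with YH439, all 91 had the same sign with DMSO and 43 (47.3%) passed there. The median difference of the 70 was 0.84 with YH439 and 0.40 with DMSO, and that of the 91 was −0.77 and −0.64. At the median gene, 48.6% of the YH439 difference stood with DMSO among the higher genes and 84.2% among the lower genes. Less than 50% stood for 36 of the 70 higher and 11 of the 91 lower genes. Genes in both sets were chosen by their YH439 difference, so smaller DMSO values are in part a result of that choice, and no test was made of these shares.

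**Figure D4:**
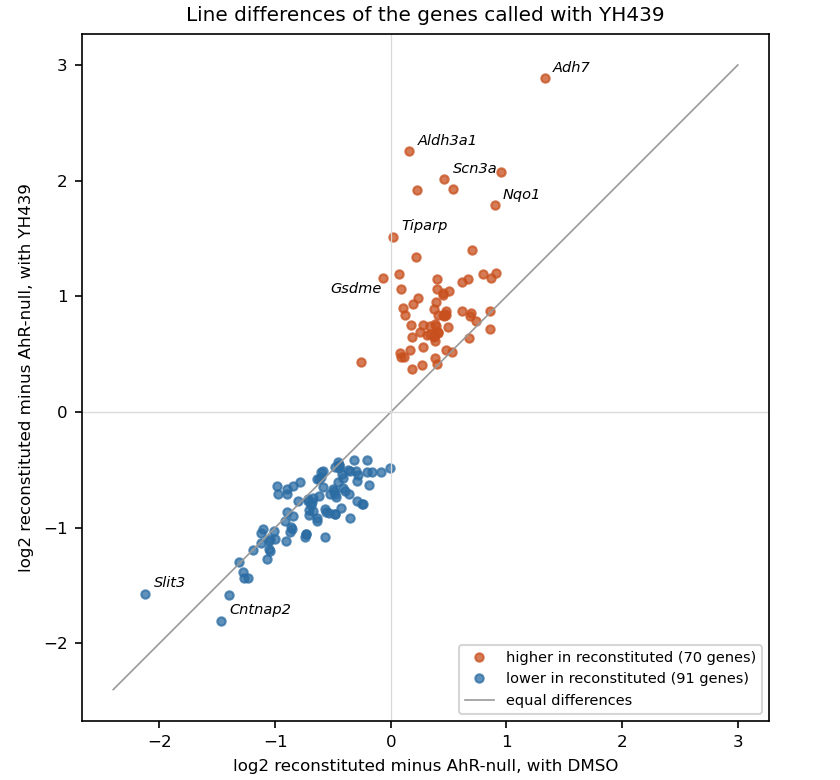
Line difference (log2 reconstituted minus AhR-null) with DMSO on the x axis and with YH439 on the y axis for the 161 genes that passed with YH439; the line marks equal differences. Of the 70 higher genes (orange), 67 were larger with YH439, against 71 of the 91 lower genes (blue), and the lower genes lie near the line.

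The change of the line difference between YH439 and DMSO was tested directly for each gene. It passed for 3 genes (0.0269%), all with a larger fitted difference under YH439: Aldh3a1 by 2.10 ± 0.20 (limma adjusted p = 0.000216), Gsdme by 0.98 ± 0.14 (0.0113), and Scn3a (0.0109). Scn3a was not above background on any AhR-null array with YH439 or DMSO, so the size of its change was not measured. The calls of Scn3a and Gsdme were lost with the 4 groups alone (0.108 and 0.0736), and that of Scn3a with median scaling (0.871). Without AhR-null YH439 replicate 1 or 2, or without reconstituted YH439 replicate 1, 1 gene passed. Arrays with the same number within a line deviated together, although AhR-null replicates 1 and 2 also did so across numbers. With line and number as a random block 23 genes passed, 21 of them with a larger value under YH439. With the same pairing as a fixed term, 18 genes passed, all with a larger value. Tiparp, at 1.5 ± 0.27, had a limma adjusted p of 0.132, which became 0.000376 with the random block and 0.00389 with the fixed term. Chil1, at 1.69 ± 0.31, went from 0.132 to 0.000869 and 0.00713. Adh7 at 1.56 and Cldnd1 at 1.23 also missed without the block (limma adjusted p = 0.38 and 0.398) and passed with the random block (0.000376 and 0.00199).

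In suspended cells, 199 genes (1.78%) differed between the lines, 83 (0.744%) higher and 116 (1.04%) lower in reconstituted cells. Of the 70 higher genes, 34 (48.6%) also passed in suspension, and of the 91 lower genes, 52 (57.1%). The suspension arrays share the dim and brighter sets as well, and the part of those sets in this overlap was not tested. Aldh3a1 differed by 1.56, Adh7 by 2.08, Nqo1 by 1.96 and Cyp1b1 by 1.74 in suspension, all past the threshold, while Tiparp at 0.49 and Chil1 at 0.18 did not pass. The change of the line difference between YH439 and suspension passed for 0 genes (0.0%) with limma, where 317 had an unadjusted p under 0.05. With line and number as a random block it passed for 40 genes, and as a fixed term for 18. The same 40 genes passed in YH439, DMSO and suspension in 1 direction, 6 higher and 34 lower in reconstituted cells, Cntnap2, Adamts9, Mmp3, Dcn and Trim30a among the lower.

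The count for the line difference with YH439 was also taken without the dim arrays. Without the 6 dim arrays 2771 genes passed, 1518 higher and 1253 lower, of which 1172 (42.3%) had the same sign on the dim pair of arrays, 1 of each line. All 161 genes had the same sign on the dim pair, and 159 of them passed without the dim arrays, where 2771 of all 11149 genes did. The dim pair and the brighter arrays are both part of the fit that chose the 161, so neither is separate evidence. On that pair the difference was 2.45 for Adh7, 1.91 for Aldh3a1, 1.76 for Tiparp and 1.04 for Gsdme. For Cntnap2 it was −2.06, for Mmp3 −1.08 and for Dcn −0.71.

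**Figure D5:**
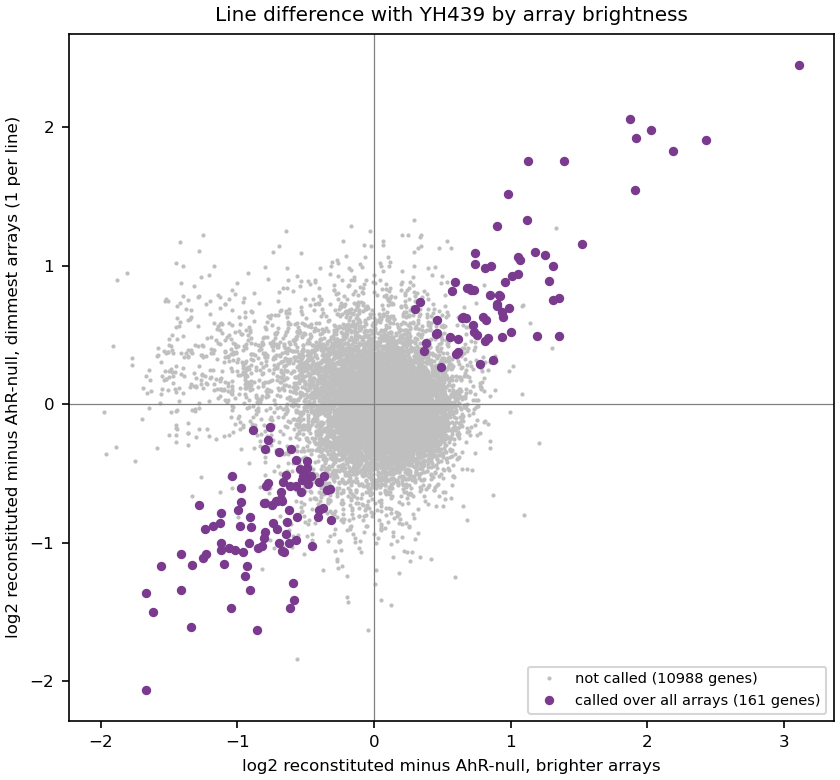
Line difference with YH439 (log2 reconstituted minus AhR-null) on the 4 brighter arrays (x axis) and on the dim pair, 1 array per line (y axis), for all tested genes; purple marks the 161 genes that passed over all arrays. The purple genes lie in the quadrants of equal sign, while grey genes spread to both signs on the dim pair.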

How the data were processed

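RNA (500 ng) of each sample was labelled and hybridised to Illumina mouse BeadChips, per the labels' protocols, and read by the authors with BeadStudio (no version stated). The deposited non-normalized table holds background-subtracted intensity and a detection p-value for each of 45281 probes. The authors' processed intensity, used as an alternative, is linear and has a floor of 20, which is also each array's median, and its scaling is unknown. Its rank correlation with the non-normalized values over all probes, ties at the floor included, was 0.881 to 0.898.

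Probe names came from the platform's annotation: 34885 probes name 1 gene, 18 several and 10378 none, and 34807 matched RefSeq GRCm38.p6. The limma 3.58.1 function neqc in R 4.3.3 gave the values (normexp from the detection p-values, offset 16, quantiles, log2 intensity). Of 22203 kept probes, 18673 named 1 gene, and the brightest of them by its mean represented each gene (4775 genes had more than 1). Means of 6 groups were fitted over 18 arrays (12 residual degrees of freedom) with lmFit and eBayes, with two-sided tests and Benjamini-Hochberg adjustment over 11149 genes at 0.05. The code was tested on simulated data. The number of arrays and the signal over background limit the precision.

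The members and the 38 gene lists were chosen with earlier results of these data known. Named genes are Ahr, Cyp1a1, Cyp1b1, Ahrr, Tiparp, Nqo1 and Aldh3a1, the 12 largest differences each way that passed, did not overlap and were detected on all 3 arrays of the brighter group, up to 4 members per list by p, and the genes that passed in the difference from DMSO with up to 10 more. Clone names were passed over. Gpc1, Xdh, Srxn1, Foxf1, Chrna5, Gpm6a, Hmcn1, Mmrn1 and list members named as not passing fall outside this rule and were chosen after their values were seen. Within a line, arrays of the same number correlated in their deviations from group means (0.173 to 0.862 over 18 pairs). In the AhR-null line, replicates 1 and 2 correlated as highly across numbers. There, DMSO replicate 1 correlated at 0.63 with YH439 replicate 1 and at 0.673 with YH439 replicate 2. The number therefore does not tell those 2 replicates apart, and the blocks by line and number rest on a relation seen in the data. The sets of dim and brighter arrays were likewise inferred from the median signal. Alternatives were other background corrections, scaling, filters, probe rules, blocks, array sets, and leaving out each array.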

Additional observations from a re-analysis of the deposited data

Results flagged for a closer look

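The line difference changed between DMSO and YH439 by the test of the change itself for 3 genes: by 2.10 on the log2 scale for Aldh3a1, 0.976 for Gsdme and a fitted 1.55 for Scn3a. The Scn3a value is not a measured size, since no AhR-null array with YH439 or DMSO was above background for it. Among the named genes, the arrays of the lines stood apart in opposite directions under the 2 conditions for Nckap5 and Ptx3. Both had been named for a small p in this same change, so the pattern is not separate evidence. Nckap5 had levels of 7.10, 7.12 and 7.41 in AhR-null and 7.74, 7.49 and 7.42 in reconstituted cells with YH439, while with DMSO it had 7.31, 7.23 and 7.17 against 6.89, 6.87 and 6.75. Neither of these Nckap5 line differences passed (limma adjusted p = 0.291 with YH439 and 0.247 with DMSO), and its YH439 groups nearly touched. Its other kept probe differed by 0.11 with YH439. The Nckap5 change was 0.737, with a limma adjusted p of 0.533. Ptx3 had levels of 12.43, 12.45 and 12.17 against 12.86, 12.70 and 12.79 with YH439. With DMSO it differed by −0.25 and did not pass (limma adjusted p = 0.395), every AhR-null array lying above every reconstituted one. The change was 0.683, with a limma adjusted p of 0.172. The change passed for both genes with line and number as a random block (limma adjusted p = 0.00768 for Nckap5 and 0.00182 for Ptx3).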

How the results depend on the processing

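None of the 59 genes picked by the naming rule that passed with YH439 changed sign under the alternatives run. The count of 161 genes became 40 with the YH439 arrays alone, 2771 without the 6 dim arrays and 400 with the array set as a term (140 higher, 260 lower, so 35.0% higher against 43.5%). With the authors' values it was 239, with 33.5% higher. Leaving out 1 array gave 91 to 160, with 91 without reconstituted YH439 replicate 3 and 99 without replicate 2. In every other alternative it lay between 130 and 194. The test of every kept probe (194) was added after seeing the data. Across lines the numbers did not pair the YH439 arrays (correlations −0.43, −0.02 and −0.58), and with the replicate block 170 genes passed.

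The count of 3 for the change from DMSO became 5 with the authors' values, 1 with the 4 groups alone, 16 with the array set, 23 with the random block and 18 with the fixed term, which was added after seeing the data. Leaving out 1 array gave 1 to 4, and the replicate block gave 3. The count of 0 for the change from suspension became 10 with the authors' values, 40 with the random block, 1 without the dim arrays, 23 with the array set and 18 with the fixed term. Leaving out 1 array gave 0. The cause of these changes was not tested.

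Of the 59 named calls, 33 were lost with the YH439 arrays alone, where fewer arrays estimate the spread, 7 with median scaling, 5 with the authors' values and 8 to 14 when 1 array was left out. Thbs2, Psmb8 and Sema3a lost theirs under each such omission.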
